A study of Homo sapiens with 6 samples.

Results

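The regions described here are the ZIC2-bound regions of a gene-dense stretch on the long arm of chromosome 19, around cytoband 19q13.3, from 45 to 51 Mb of the human genome build hg19. They are all regions of the deposited lists whose midpoint lies in that stretch. There were 226 of them, out of 1067 regions on chromosome 19 and 16077 in the genome. Binding of ZIC2 was mapped by CUT&Tag in H1 (WA01), an established human embryonic stem cell line. In CUT&Tag an antibody brings a transposase to the bound protein, and the DNA cut around it is sequenced. The groups were wild-type H1 cells (WT, 2 anti-ZIC2 libraries) and H1 cells in which ZNF263 had been deleted with Cas9, called a homogeneous knockout in the labels (KO, 2 anti-ZIC2 libraries). Each genotype also had 1 library made with normal rabbit IgG, which was not analysed here. Whether the replicates were separate cultures, and whether the knockout cells came from a single clone, was not given in the sources used here.

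The authors deposited 1 list of regions per genotype, with the position of each region and no height, score or read count. The lists therefore carry no replicate error, and the depth behind them is unknown. The absence of a region from a list says that it was not called, and is no measurement of lost binding. A region in both lists is named shared, and a region in 1 list is named WT-only or KO-only. All 89 overlapping pairs of the stretch had identical edges in the WT and the KO list, so that the width of a shared region is 1 value common to both genotypes. Whether the lists were called separately or selected from 1 joint set of regions was not given in the sources used here. They are therefore not taken as independent calls.

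ZIC2, of the ZIC family of zinc-finger transcription factors, is active in pluripotent and early neural cells and is needed for forebrain development. In embryonic stem cells, ZIC2 is known to occupy enhancers as well as promoters. ZNF263 is a zinc-finger DNA-binding protein with a SCAN and a KRAB domain, a domain type best known from transcriptional repressors. Cytoband 19q13.3 is known for many short, closely packed and broadly expressed genes. In RefSeq order on GRCh38, another build than that of the lists, the genes of this band run from RELB, an NF-kB subunit, and FOSB, an AP-1 subunit, past the calmodulin gene CALM3, the homeobox genes MEIS3 and CRX and the DNA ligase gene LIG1. They continue to the apoptosis gene BAX, the interferon regulator IRF3 and the DNA polymerase gene POLD1. Positions of different builds were not mixed, so these genes were not placed against the regions, and gene density, promoters and motifs in the sequence of the regions were not analysed here.

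The stretch was chosen for its density, so density is given as a description. The 226 regions make 37.7 per Mb (exact 95% Poisson interval 32.9 to 42.9, counting error only). The rest of chromosome 19, up to its last region, held 841 regions, or 15.8 per Mb, with unsequenced bases counted in its length. Among 3070 stretches of 6 Mb that start at every Mb of the genome, this one ranked first by its number of regions. The next densest stretches that do not overlap it or each other lay on chromosome 11 from 62 to 68 Mb (172 regions), on chromosome 19 from 0 to 6 Mb (149 regions) and on chromosome 19 from 13 to 19 Mb (146 regions). The regions of the stretch covered 89.9 kb, or 1.5% of its length, against 0.622% in the rest of chromosome 19.

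The left edge is sharp in the lists and the right edge is not. The last region before the stretch was a KO-only region of 183 bp at chr19:44259176-44259358, and the first inside it was a shared region of 657 bp at chr19:45004228-45004884. The 744.9 kb between them held no region of either list. On the right, a shared region of 1023 bp at chr19:50979162-50980184 was the last inside, and a shared region of 1205 bp at chr19:51013997-51015201 followed after 33.8 kb. The 500 kb beyond the right edge held 13 regions, with 6 in both lists, 2 in WT alone and 5 in KO alone.

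**Figure D1:**
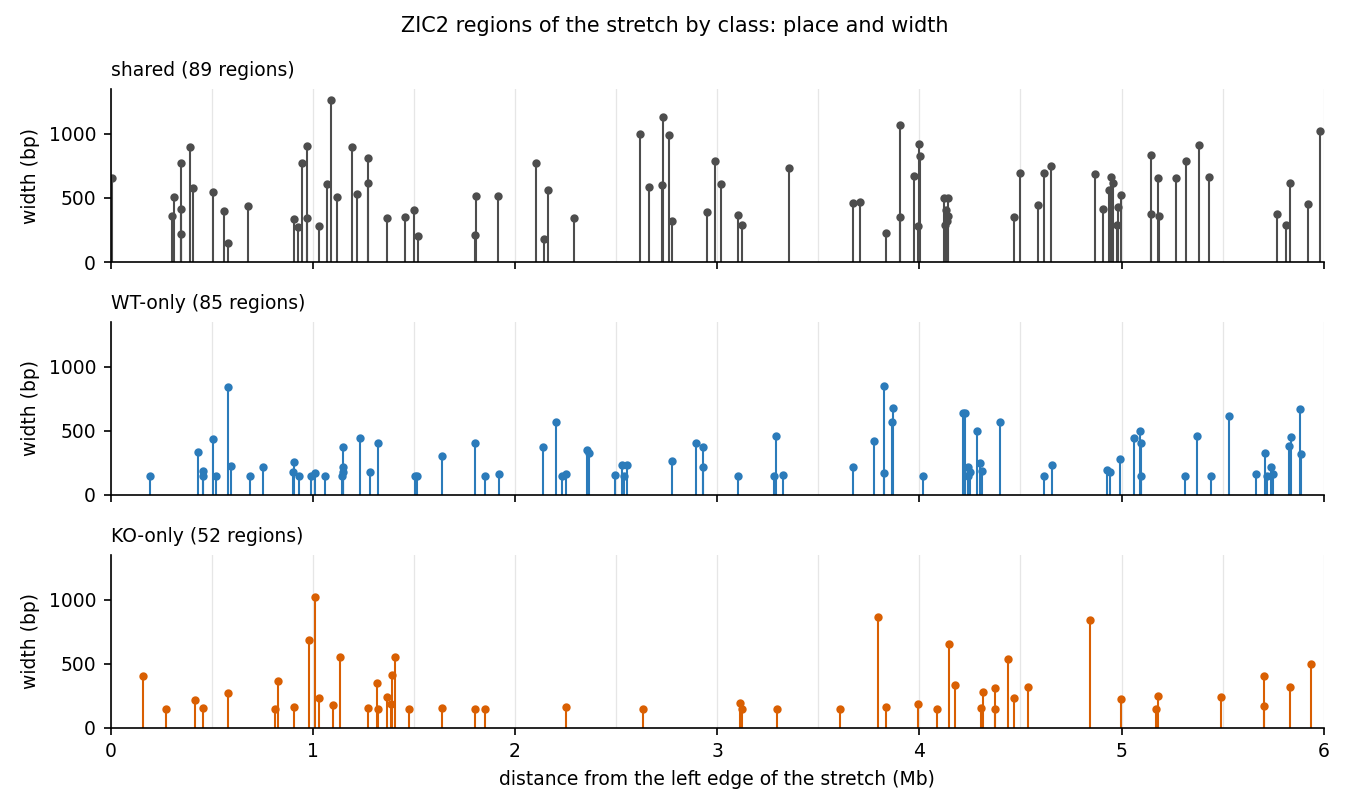
Each of the 226 ZIC2 regions of the stretch, by class (89 shared, 85 WT-only and 52 KO-only regions), is drawn at its distance from the left edge (x, Mb) with its width (y, bp). Shared regions are the tallest bars, up to 1262 bp, and KO-only regions are crowded between 1.0 and 1.5 Mb from the left edge, where 12 of the 52 lie.

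The 226 regions were made up of 89 shared, 85 WT-only and 52 KO-only regions. With 174 regions of the WT list and 141 of the KO list, there were 81.0 KO regions for every 100 WT regions. This ratio was 68.4 in the rest of chromosome 19 and 54.7 on all other chromosomes. In the next densest stretches it was 72.1 on chromosome 11, and 76.7 and 66.1 on chromosome 19 from 0 to 6 Mb and from 13 to 19 Mb. The stretch held 2.16% of all shared regions of the genome (exact Clopper-Pearson 95% interval 1.74 to 2.65), 1.67% of all KO-only regions (1.25 to 2.19) and 0.961% of all WT-only regions (0.768 to 1.19). Over all classes it held 1.41% of the regions (1.23 to 1.6), a share inside the interval for KO-only regions. These intervals, like those that follow, cover only counting error and take regions as independent, although neighbours are not.

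The KO list held 89 of the 174 WT regions, which is 51.1% (43.5 to 58.8), against 31.8% over all WT regions of the genome. The other 48.9% were not called in KO, against 68.2% over the genome. In the rest of chromosome 19 the share called again was 47.3% (43.5 to 51.1), an interval that overlaps that of the stretch. WT regions outside chromosome 19 were called again in 30.6% of cases (29.8 to 31.4). The 3 next densest stretches gave 45.6% on chromosome 11, 52.5% on chromosome 19 from 0 to 6 Mb, and 55 of 121 WT regions there from 13 to 19 Mb. The share of WT regions called again was thus close to that of other dense stretches, on and off chromosome 19.

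KO-only regions made up 36.9% of the KO list in the stretch (28.9 to 45.4, 52 of 141), against 43.0% over all KO regions of the genome and 30.9% (26.8 to 35.3) in the rest of chromosome 19. In the next densest stretches this share was 36.7% on chromosome 11, and 31.5% and 31.2% on chromosome 19. Among regions found in 1 list, 38.0% were KO-only (29.8 to 46.6, 52 of 137). The corresponding share was 26.0% over the genome, 28.7% (24.8 to 32.8) in the rest of chromosome 19 and 25.8% (24.9 to 26.6) on other chromosomes. For each KO-only region there were 1.63 WT-only regions in the stretch, 2.49 in the rest of chromosome 19 and 2.88 elsewhere. The next densest stretches had a KO-only share of 32.7% on chromosome 11, and of 33.7% and 27.5% on chromosome 19, with intervals that all overlap that of the stretch. With 1 list per genotype and a stretch picked on these lists, none of these differences was tested.

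The bins from 46.0 to 46.5 Mb and from 49.0 to 49.5 Mb held the most KO-only regions, 12 and 9, so leaving them out lowers the KO-only share by construction. It was then 34.5% of the regions in 1 list (25.9 to 43.9) without the first, 36.4% (27.8 to 45.8) without the second and 32.0% (22.9 to 42.2) without both. All 3 values lie inside the interval of the full stretch, and all 3 intervals include the 28.7% of the rest of chromosome 19. The share of WT regions called again stayed at 51.1% without both bins.

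Along the stretch, 12 bins of 500 kb held between 11 and 32 regions, with a median of 18. The 107 bins of the rest of chromosome 19 held between 0 and 26, with a median of 7, and 15 of them held none. The longest gap between neighbours there was 4025211 bp. Unsequenced bases were not masked, which can lower the counts of the rest. Of those 107 bins, 8 reached the median of the stretch. Density was uneven within the stretch, with 72 regions in the first 1.5 Mb, 52 in the next 2.0 Mb and 102 in the last 2.5 Mb.

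**Figure D2:**
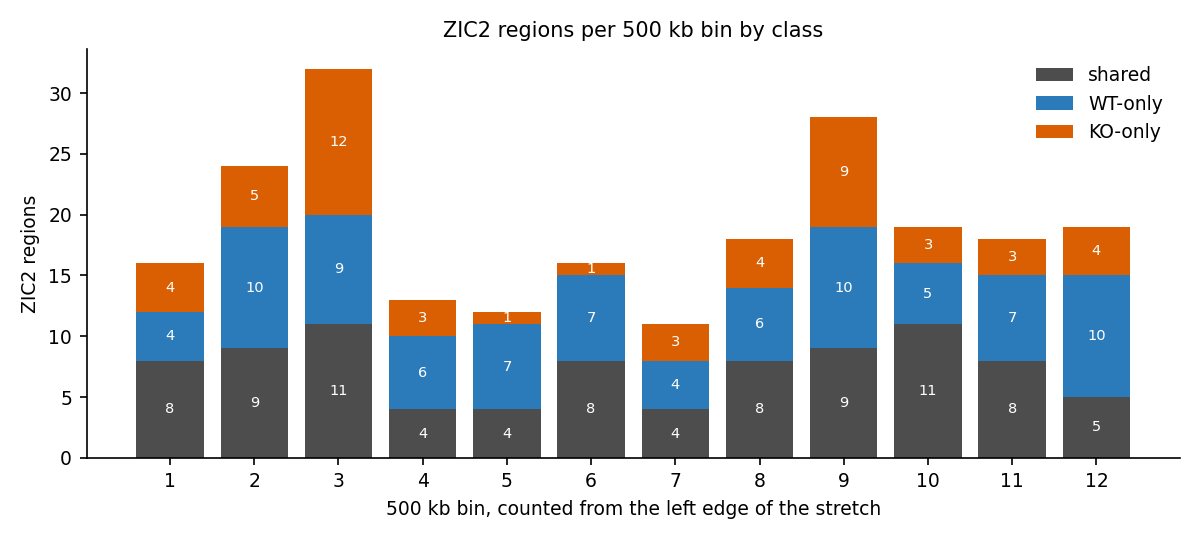
Number of ZIC2 regions (y) in each of the 12 bins of 500 kb, counted from the left edge (x), stacked by class with the number of each class printed in its bar. Bins 3 and 9 stand highest with 32 and 28 regions and hold 12 and 9 KO-only regions, whereas bins 5 and 6 hold 1 each.

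The bin from 46.0 to 46.5 Mb was the fullest, with 32 regions (Poisson interval 21.9 to 45.2). Of these, 11 were shared, 9 were WT-only and 12 were KO-only. It was the only bin of the stretch with more KO-only than WT-only regions. KO-only regions made up 57.1% (34 to 78.2) of its regions in 1 list, against 26.0% over the genome. In the rest of chromosome 19, 10 of 107 bins had more KO-only than WT-only regions, all with 7 KO-only regions or fewer. Those bins held fewer regions in all. Some had a higher KO-only share, such as 77.8% (40 to 97.2) from 2500001 to 3000000. Of the 4107 bins of the genome with at least 1 region, the bin from 46.0 to 46.5 Mb ranked first by regions and by KO-only regions. Density chose the stretch, so these ranks follow in part from the choice, and KO-only regions are part of the regions counted. The KO-only regions of this bin were spread over it, and included 4 in a row from 46367388 to 46406475. That run spans 39.1 kb and holds no region of the WT list. Its members were 242 bp, 182 bp, 414 bp and 553 bp wide. One other run of 4 KO-only regions was found on chromosome 19, from 2840682 to 2962634, and it spans 122.0 kb.

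The bin from 49.0 to 49.5 Mb ranked second in the genome by both counts, with 28 regions, which again follows in part from the choice of a dense stretch. The 9 KO-only regions of this bin stood beside 10 WT-only and 9 shared ones. Some neighbours of 1 class lay together here. Between 49122371 and 49141789, 6 shared regions followed one another within 19.4 kb. Further right, 7 WT-only regions followed one another from 49217199 to 49298961, within 81.8 kb and with no KO region between them. A KO-only region of 155 bp and a WT-only region of 187 bp followed, and then a run of 3 KO-only regions from 49314169 to 49375802. Runs this long were not limited to the stretch. The longest WT-only run of the rest of chromosome 19 had 9 regions, from 17225428 to 17378217.

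The bins between 46.5 and 48.5 Mb included the 3 with the fewest regions. They held 13, 12, 16 and 11 regions, and 3, 1, 1 and 3 KO-only regions. A run of 6 WT-only regions of at most 352 bp stood there from 47354015 to 47552105. The bin from 46.5 to 47.0 Mb had the narrowest regions, with a median of 160 bp and a covered length of 3218 bp. In contrast, the bin from 48.5 to 49.0 Mb had a median of 439.5 bp, and the bin from 46.0 to 46.5 Mb the longest covered length, 13074 bp or 2.61% of its bases.

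At the left, the first bin held the longest run of shared regions in the stretch. It had 7 members from 45303703 to 45409348, of 222 to 898 bp, with no region of 1 list between them. Another run of 7 shared regions, in the rest of chromosome 19 from 19226842 to 19431689, spans 204.8 kb against 105.6 kb here. In the last bin of the stretch, 5 of 15 WT regions were called again in KO, or 33.3% (11.8 to 61.6), the lowest share of the 12 bins. The highest was 68.8% (41.3 to 89.0, 11 of 16) from 49.5 to 50.0 Mb. The intervals of these extremes overlap, and each bin rests on 8 to 20 WT regions.

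Shared regions were the wide ones, as in the genome at large. Their median width in the stretch was 514 bp (order-statistic 95% interval 431 to 612), against 221 bp for WT-only regions (178 to 302) and 222.5 bp for KO-only regions (162 to 278). In the rest of chromosome 19 these medians were 501 bp, 214.5 bp and 207 bp, all inside the intervals of the stretch. On other chromosomes they were 455 bp, 179 bp and 164 bp. Over all classes the median was 346 bp (291 to 377) in the stretch, 306 bp (285 to 329) in the rest of chromosome 19 and 231 bp (227 to 235) elsewhere. At the minimum width of 150 bp stood 15.9% of the regions in the stretch (11.4 to 21.4), 18.2% in the rest of chromosome 19 and 31.2% elsewhere. In the next densest stretches it was 15.1% on chromosome 11, and 13.4% and 19.9% on chromosome 19 from 0 to 6 Mb and from 13 to 19 Mb.

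**Figure D3:**
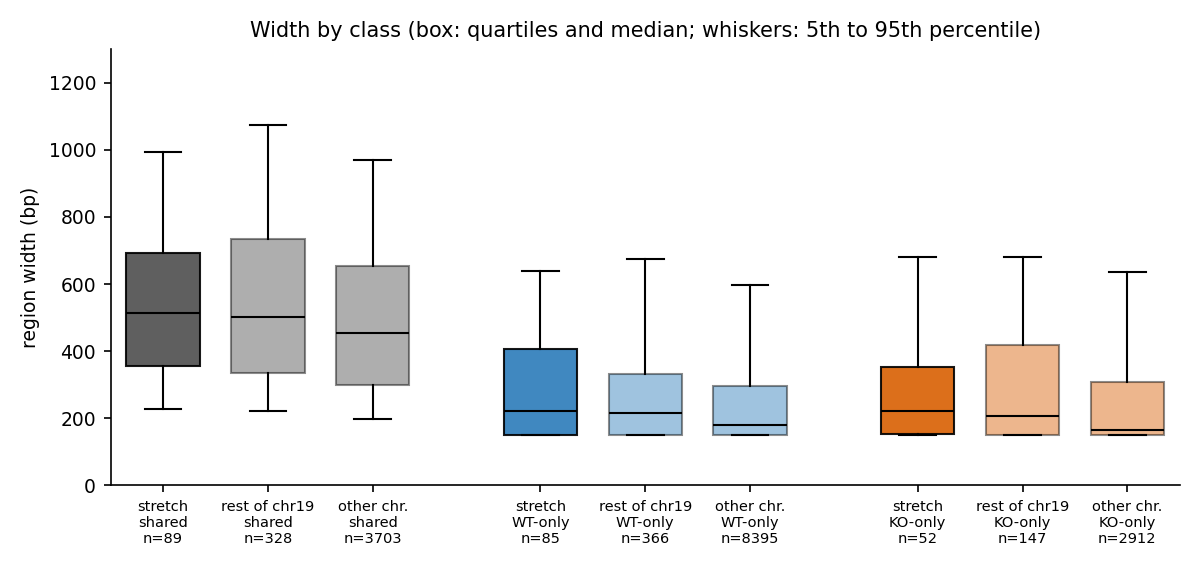
Width (y, bp) of shared, WT-only and KO-only regions in the stretch, in the rest of chromosome 19 and on other chromosomes (boxes give quartiles and median, whiskers the 5th to 95th percentile, n is the number of regions). Within each class the box of the stretch lies close to that of the rest of chromosome 19, with medians of 514 and 501 bp for shared regions.

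Above the minimum width, WT regions of the stretch were called again in shares whose intervals, at equal width, included those of the rest of chromosome 19. At 150 bp, 4.35% (0.11 to 21.9, 1 of 23) were called again in the stretch and 0 of 105 in the rest of the chromosome (exact upper bound 3.45%). From 151 to 300 bp the share was 28.6% (15.7 to 44.6) in the stretch and 29.5% in the rest of the chromosome. From 301 to 500 bp it was 56.0% (41.3 to 70.0) and 60.6%. Above 500 bp it was 81.4% (69.1 to 90.3) and 79.2%. On other chromosomes the corresponding shares were 23.4%, 47.8% and 67.9%, and that last value lies below the interval of the stretch. Since the edges are common to both lists, width is not a property measured in WT alone.

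The KO-only share of regions in 1 list, in contrast, stood farthest from that of the rest of chromosome 19 in the second width class. From 151 to 300 bp it was 41.2% (27.6 to 55.8, 21 of 51) in the stretch and 22.3% (16.7 to 28.8, 44 of 197) in the rest of the chromosome. At 150 bp it was 37.1% (21.5 to 55.1) and 31.4%, from 301 to 500 bp 31.2% and 30.9%, and above 500 bp 42.1% (20.3 to 66.5, 8 of 19) and 37.7%. Over all regions of the genome it was 28% at 150 bp, then 22.5%, 27.3% and 27.7% with rising width. From 151 to 300 bp the intervals of the stretch and of the rest of the chromosome overlap. That class was singled out after all widths were seen, and the next densest stretches were not split by width. Few narrow regions were in both lists: above 500 bp, 48 of the 67 regions of the stretch were shared, and at 150 bp 1 of 36. The exception was the shared region of 150 bp at chr19:45578763-45578912.

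**Figure D4:**
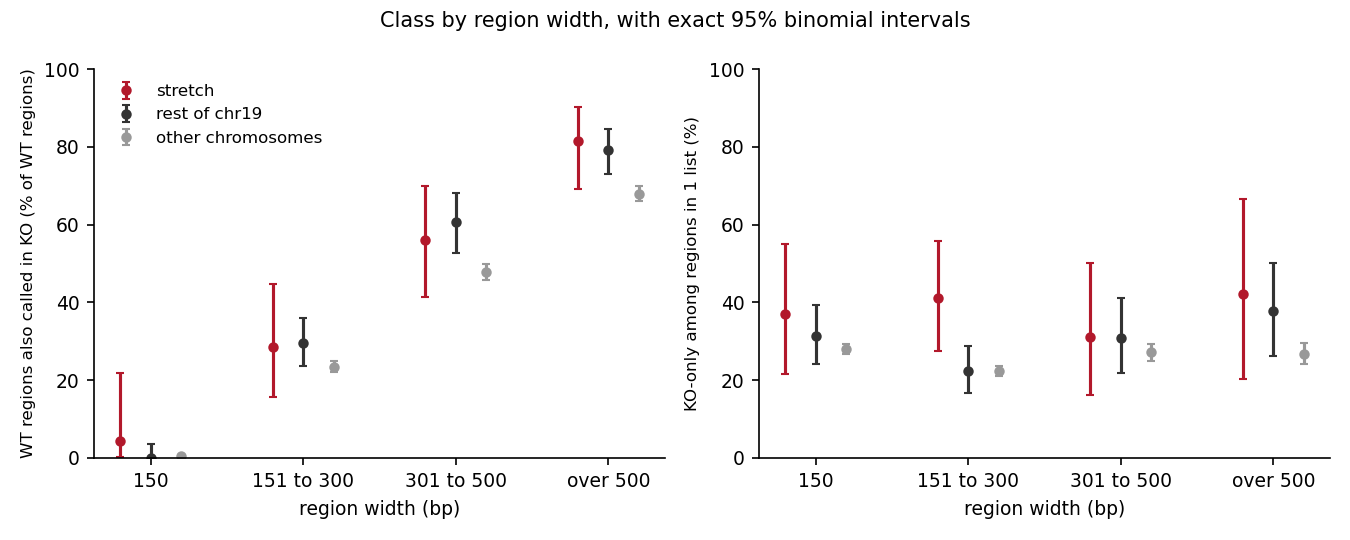
Left, percent of WT regions also called in KO; right, percent KO-only among regions in 1 list; both by region width (x, bp) for the stretch, the rest of chromosome 19 and other chromosomes, with exact 95% binomial intervals. On the left, the points of the stretch and of the rest of chromosome 19 lie close together at each width. On the right, they lie farthest apart from 151 to 300 bp, at 41.2% and 22.3%, with intervals that overlap.

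The 10 widest regions of each class fell in 6 of the 12 bins for shared, 5 for WT-only and 6 for KO-only regions. The widest shared region was 1262 bp at chr19:46087490-46088751, the fourth widest shared region of chromosome 19 and number 30 of 4120 in the genome. Its nearest neighbour was a KO-only region of 177 bp, 12390 bp away. The next were 1131 bp at chr19:47730316-47731446, 1072 bp at chr19:48903020-48904091, 1023 bp at chr19:50979162-50980184 and 997 bp at chr19:47616325-47617321. The second and the third each lay less than 1 kb from another shared region, at 694 bp and 629 bp. The remaining 5 of the 10 widest were 994 bp at chr19:47759704-47760697, 920 bp at chr19:48996014-48996933, 910 bp at chr19:50380484-50381393, 905 bp at chr19:45970408-45971312 and 901 bp at chr19:46195127-46196027. The 500 kb from 47.5 to 48.0 Mb, with 16 regions in all, held 3 of these 10.

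Among WT-only regions the widest were 852 bp at chr19:48824515-48825366 and 843 bp at chr19:45582371-45583213, numbers 81 and 88 of 8846 in the genome. The first stood 987 bp from a WT-only region of 172 bp. A pair of wide WT-only regions, 567 bp at chr19:48866360-48866926 and 675 bp at chr19:48867109-48867783, was separated by 182 bp. Another pair, 639 bp at chr19:49217199-49217837 and 642 bp at chr19:49223839-49224480, was separated by 6001 bp and opened the run of 7 WT-only regions. The other 4 of the 10 widest were 669 bp at chr19:50879805-50880473, 613 bp at chr19:50528636-50529248, 571 bp at chr19:47200385-47200955 and 571 bp at chr19:49399331-49399901. The bins from 48.5 to 49.0 Mb and from 49.0 to 49.5 Mb held 3 each of these 10. In 7 of these 10 the nearest neighbour was itself WT-only. The members of both pairs named above are among them, each as the other's nearest neighbour. Of the 10 widest of the other classes, the nearest neighbour was of the same class for 6 shared and 2 KO-only regions. The classes differ in size, with 89 shared, 85 WT-only and 52 KO-only regions. The share over all regions of each class is not given here, so these counts are a description only.

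Among KO-only regions the widest was 1024 bp at chr19:46009733-46010756, number 21 of 3111 in the genome and the fifth on chromosome 19. A WT-only region of 173 bp followed after 1438 bp. The next were 864 bp at chr19:48793547-48794410 and 844 bp at chr19:49842126-49842969, which stood 18309 bp and 23675 bp from any other region. The third was also the first region after an empty stretch of 186.9 kb. Then came 682 bp at chr19:45981829-45982510 and 657 bp at chr19:49148140-49148796, the latter 6350 bp after the run of 6 shared regions. The other 5 of the 10 widest were 553 bp at chr19:46405923-46406475, 549 bp at chr19:46135855-46136403, 539 bp at chr19:49436625-49437163, 494 bp at chr19:50934878-50935371 and 414 bp at chr19:46389737-46390150. The bin from 46.0 to 46.5 Mb held 4 of these 10, and bins between 46.5 and 48.5 Mb held none. Of all 52 KO-only regions of the stretch, they held 12 and 8.

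Regions of the stretch stood close together. The median gap between neighbours was 14234 bp (10015 to 18894, 225 gaps), against 26079 bp (22330 to 29136) in the rest of chromosome 19 and 66828 bp elsewhere. The chromosome 11 stretch came nearest, with 17685 bp (12955 to 23405). Gaps under 5 kb made up 31.1% (25.1 to 37.6) in the stretch, 24.6% (18.3 to 31.7) in the chromosome 11 stretch and 18.7% (16.1 to 21.5) in the rest of chromosome 19. Gaps of 100 kb or more made up 4.44%, against 13.6% in the rest of chromosome 19. Short gaps follow in part from density, which chose the stretch.

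**Figure D5:**
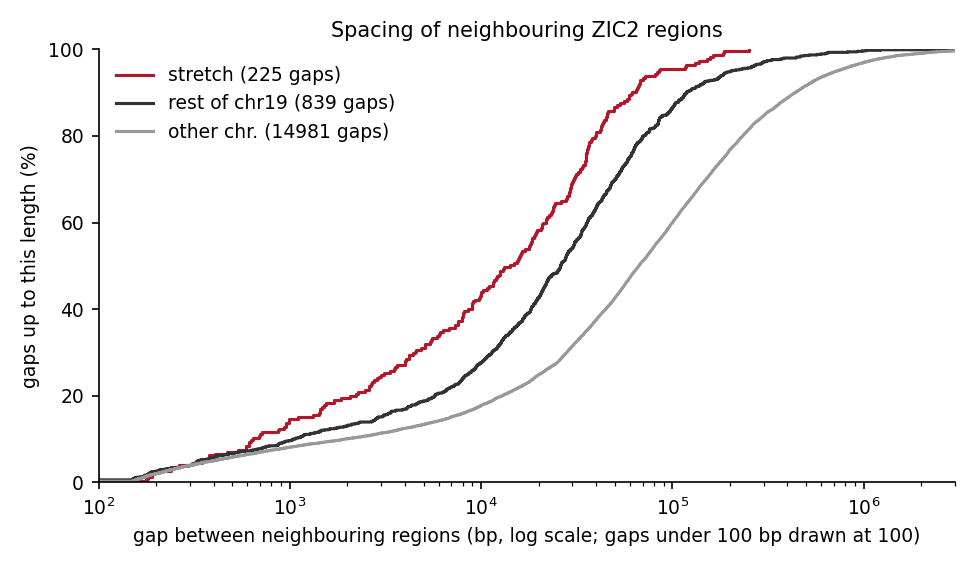
Percent of gaps between neighbouring ZIC2 regions (y) that are no longer than the length on the x axis (bp, log scale), for the stretch, the rest of chromosome 19 and other chromosomes. The curve of the stretch lies left of the others from about 1 kb on, with medians of 14234, 26079 and 66828 bp.

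The longest gap inside the stretch ran over 253.1 kb from 48353318 to 48606446, between a shared region of 733 bp and a KO-only region of 150 bp. It was followed by gaps of 186.9 kb from 49655226 to 49842125 and 183.9 kb from 46919863 to 47103797. Even the longest of these was shorter than the 744.9 kb before the left edge. The shortest gap was 158 bp, between the shared region at chr19:48123149-48123438 and the KO-only region at chr19:48123597-48123746. No regions of the stretch touched.

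Pairs of different class outnumbered pairs of the same class, at short gaps too. No class held more than 39.4% of the regions of the stretch, so most pairs would differ in class under random order too. Of the 33 pairs with a gap under 1 kb, 14 were of the same class, or 42.4% (25.5 to 60.8), with 8 shared pairs, 6 WT-only pairs and 0 KO-only pairs. In the rest of chromosome 19 it was 28.4% (18.9 to 39.5, 23 of 81), and on other chromosomes 39.6% (36.8 to 42.4, 482 of 1217). Over all 225 pairs of neighbours, 79 were of the same class, or 35.1% (28.9 to 41.7). The share was 37.9% (34.6 to 41.3) in the rest of chromosome 19 and 42.6% (41.8 to 43.4) on other chromosomes. A WT-only and a KO-only region stood under 1 kb apart in 6 pairs, of which the closest was 262 bp apart, at chr19:46320321-46320725 and chr19:46320988-46321137. The rest of chromosome 19, with 81 pairs under 1 kb, also held 6 such pairs. On other chromosomes, 265 of 1217 pairs under 1 kb were of this kind. Of the 52 KO-only regions, 25 lay within 5 kb of a region of the WT list, or 48.1% (34.0 to 62.4), against 36.1% (28.3 to 44.4) in the rest of chromosome 19. A region of the KO list lay within 5 kb of 28 of the 85 WT-only regions, or 32.9% (23.1 to 44.0), against 20.2% (16.2 to 24.7). These 5 kb shares follow in part from density, which chose the stretch, and were not computed for the other dense stretches.

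Groups of 3 or more regions with gaps under 5 kb numbered 15 and held 50 regions, or 22.1% of the stretch (16.9 to 28.1), against 9.87% (7.94 to 12.1) in the rest of chromosome 19. Regions with no other inside 5 kb made up 46.9%, against 66.3%. Groups, too, follow in part from density, and they were not counted in the other dense stretches. Of the 15 groups, 10 held a KO-only region, 4 held all 3 classes and 4 were of 1 class. In the rest of chromosome 19 these numbers were 16, 8 and 4 of 26 groups. On other chromosomes they were 134, 56 and 43 of 260 groups.

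The groups of 1 class were 3 shared regions at chr19:45347896-45350274, 4 WT-only regions at chr19:46142274-46149580, 4 shared regions at chr19:49133126-49141789 and 3 WT-only regions at chr19:50093223-50096967. No group was made of KO-only regions alone. The group of 3 shared regions spans 2379 bp, of which 1410 bp were covered, with gaps of 592 and 377 bp. The group of 4 WT-only regions spans 7307 bp with 918 bp covered, and none of its members was wider than 372 bp. The group of 4 shared regions, part of the run of 6, spans 8664 bp and had members of 320 to 502 bp.

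The groups with all 3 classes were 3 regions at chr19:45578763-45583213, and 4 regions each at chr19:45901558-45908531, chr19:46799998-46807729 and chr19:50828879-50836924. The first joined the 150 bp shared region, a KO-only region of 270 bp and the WT-only region of 843 bp. The second and the fourth had the same order, with a WT-only region on either side of a shared and a KO-only region, and had members of 162 to 333 bp and 315 to 617 bp. The third had a shared region on either side of a KO-only and a WT-only region.

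Of the other groups, chr19:46270751-46274386 and chr19:48993159-48996933 each held a narrow KO-only region (155 bp and 186 bp) to the left of 2 shared regions, the wider of 811 bp and 920 bp. At chr19:50179948-50184212 a KO-only region of 252 bp stood between 2 shared regions, and at chr19:49939453-49946411 a WT-only region of 178 bp did. At chr19:45454880-45458636 a KO-only region of 156 bp stood between 2 WT-only regions, and at chr19:46318977-46321137 a WT-only region of 405 bp stood between 2 KO-only regions. The last, at chr19:50703373-50708807, had 2 KO-only regions and a WT-only region.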

How the data were processed

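CUT&Tag for ZIC2 was made from 2 WT and 2 KO libraries of H1 cells. The deposited files are 1 peak list per genotype with chromosome, start and end, and hold nothing per library. The submitters' processing notes name Bowtie2, Picard and hg19. How peaks were called, with which threshold and use of IgG, and how replicates were pooled was not given in the sources used here, and depth is unknown. Python 3.11.15 with pandas 2.3.3 read the lists, and scipy 1.17.1 gave the intervals. Regions with identical edges in both lists were called shared. In the stretch, an overlap of at least 1 bp gives the same 89 regions. Gaps run from the end of a region to the start of the next. Bins of 500 kb took regions by their midpoint, with unsequenced sequence not masked. Coordinates are counted from 1. Regions were named by a rule: the 10 widest of each class, groups of 3 or more with gaps under 5 kb, the 3 longest gaps and the regions at the edges. Runs and single bins were added after their values were seen. The stretch and these rules were chosen with earlier results of these data known, so no test was made. The routines were tested on simulated data.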

Additional observations from a re-analysis of the deposited data

How the results depend on the processing

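Of 39 values recomputed under other settings, 32 stayed inside the interval of the main value. The shares by class and the ratio of the lists stayed inside with the edges of the stretch moved by 0.5 Mb either way. Both shares also did so for regions wider than 150 bp and with regions within 1 kb joined. The KO regions not called in WT fell from 36.9% to 27.7% when a region counted as shared with an edge within 1 kb, and the WT regions not called in KO from 48.9% to 32.3% when the WT list was limited to its widest regions, as many as KO. That limit favours shared regions by construction. Keeping only regions wider than 150 bp gave 31.7 regions per Mb and a median width of 397 bp, and joining gave 32.2 per Mb, a median width of 410 bp and a median gap of 19307 bp, all by construction. With bins shifted by 250 kb, the fullest bin held 31 regions and the highest number of KO-only regions was 9 instead of 12. Leaving out bin 3 or bin 9 or both, chosen after seeing the data, gave 74.1 to 79.4 KO regions per 100 WT regions. A reciprocal overlap of 50% moved nothing, since overlapping pairs have identical edges. No paired analysis was possible because the lists carry no value per replicate, and for that reason no replicate could be left out. Without read counts, a weak region cannot be told from an uncalled one.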
